A study of Arabidopsis thaliana with 12 samples.

Results

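10 genes of glucosinolate breakdown in roots are described here across wild type and the line 6-6, with and without salt. They are the ER body genes PYK10, BGLU21, BGLU22, NAI1 and NAI2, the thioglucosidase genes TGG4, TGG5 and PEN2, and the nitrile specifier genes NSP1 and NSP3. They were chosen by their gene codes, and all 10 were found in each of the 4 deposited tables, which list 33557 genes. RNA was sequenced from cuts of about 1 cm at the root tips of Arabidopsis thaliana seedlings that had grown for 8 days and then spent 24 h on 1/2 MS medium or on the same medium with NaCl. The 4 groups, each of 3 samples, were wild type on MS (WT MS), wild type on NaCl (WT NaCl), the line 6-6 on MS (6-6 MS) and the line 6-6 on NaCl (6-6 NaCl). The NaCl concentration, the ecotype of wild type and the allele carried by 6-6 are not stated in the labels. The series title names ITPK4, an inositol phosphate kinase gene, whose level per transcript length was 24.9 FPKM in WT MS and 2.95 FPKM in 6-6 MS in the authors' deposited table. The labels do not say whether samples of a group are separate cultures, and p-values measure only the spread between these samples, which may be technical.

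Glucosinolates are sulfur-containing defence compounds of the cabbage order that are stored away from the enzymes that split them. Myrosinases are the beta-glucosidases that remove the sugar, after which the unstable core turns into an isothiocyanate, or into a simple nitrile where a nitrile specifier protein is present. ER bodies are spindle-shaped compartments of the endoplasmic reticulum in roots and seedlings that hold very large amounts of the beta-glucosidase PYK10, whose formation needs the transcription factor NAI1 and the protein NAI2. PYK10, BGLU21, BGLU22 and PEN2 are called atypical myrosinases because they keep the acid/base catalytic glutamate of ordinary beta-glucosidases. Classical myrosinases such as TGG4 and TGG5 lack that acid/base glutamate.

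Each value below is 1 group FPKM (fragments per kilobase of transcript, scaled to the fragments mapped) in which the authors had combined the samples of a group, which leaves no spread between samples to print, and library depth is unknown. The tables were scaled separately. Each group stands in 2 of them, and over the 10 genes its values differed by at most 2.23% between them. Genes count as called if the authors' q-value, adjusted by Benjamini-Hochberg across the genes tested in that table, lay below 0.05. As a check, the deposited test statistic was also taken as a normal deviate and adjusted anew over the tested genes that have one. This is referred to as the normal-deviate reading, and it called fewer genes in each table. Log2 fold changes are the log2 ratio of the 2 group FPKM of 1 table with no pseudocount. All 10 genes passed the authors' filter on low values in all 4 tables.

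The cut of tissue carried root tip transcripts in every group. All 9 root tip markers, among them PLT1, WOX5, SCR and CASP1, were above 2 FPKM in each group, and their summed level lay between 339 and 479 FPKM. Of genes known from leaves, TGG1, the main leaf myrosinase gene, stayed below 1 FPKM, and ESP, the leaf epithiospecifier gene, was listed at 0 in every group. FAMA, a regulator of guard cells and myrosin cells, was at or near 0. Green tissue markers, in contrast, were detected in every group, with a summed level between 108 and 321 FPKM, and their levels are given beside the results. How much green tissue the cuts held was not tested.

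**Figure D1:**
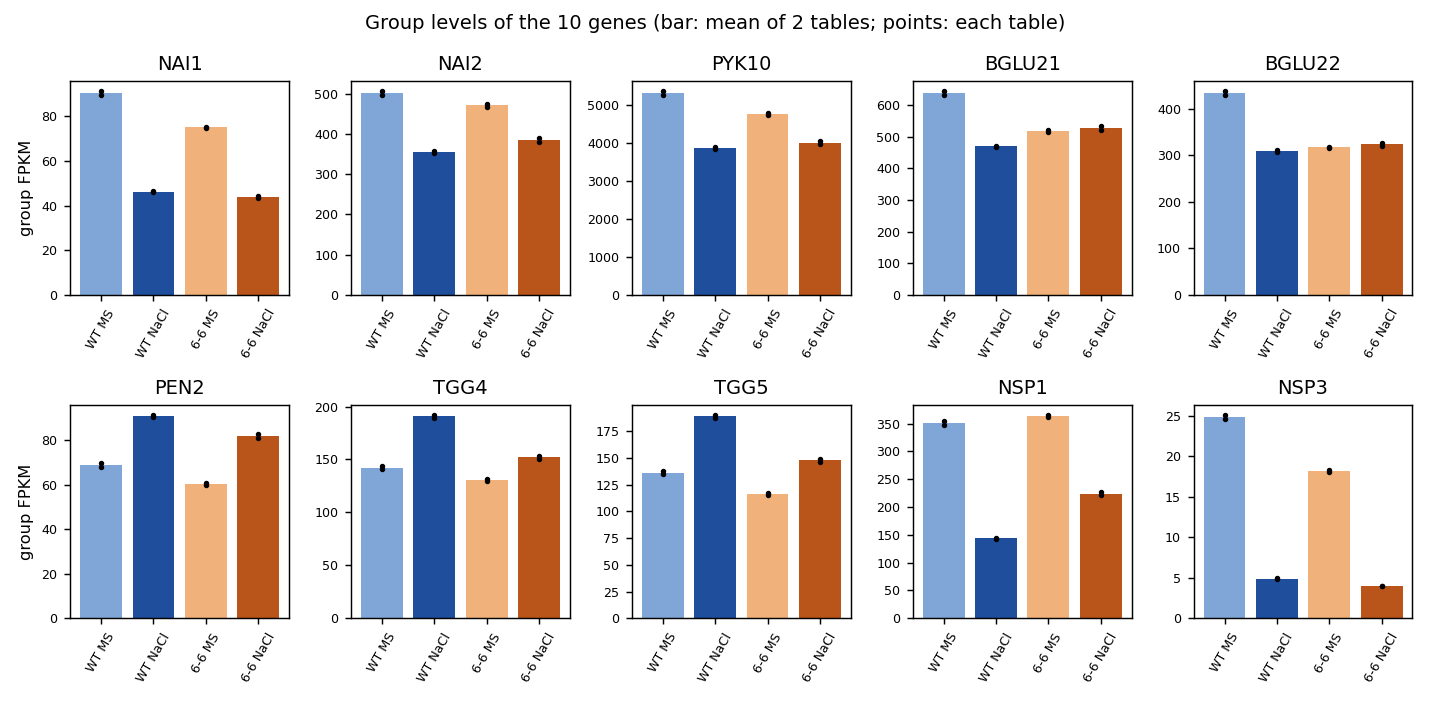
Levels of the 10 genes in group FPKM (vertical axes, each starting at 0) in the 4 groups. Bars are the mean of the 2 tables that hold a group and points are the single tables. PYK10 reached 5364 FPKM on WT MS and NSP3 25.1 FPKM, and NSP1, NSP3 and NAI1 were lower on NaCl in both lines.

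PYK10 was the most abundant transcript of all listed genes per length in each of the 4 groups. It made up between 0.419% and 0.590% of the summed FPKM of a group. On WT MS the order of levels was PYK10 at 5364 FPKM, BGLU21 at 645 FPKM, NAI2 at 507 FPKM, BGLU22 at 438 FPKM, NSP1 at 355 FPKM, TGG4 at 144 FPKM, TGG5 at 138 FPKM, NAI1 at 91.3 FPKM, PEN2 at 69.5 FPKM and NSP3 at 25.1 FPKM. The levels ran over more than 2 orders of magnitude, from the ER body enzyme at the top to the minor specifier at the bottom. Whether neighbours in this order, such as TGG4 and TGG5, differed beyond the spread of samples cannot be said from group values. Of the summed FPKM of the 6 myrosinase genes, PYK10 held 78.9% in WT MS, 75.6% in WT NaCl, 80.7% in 6-6 MS and 76.4% in 6-6 NaCl.

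Salt changed all 10 genes in wild type, 3 upward and 7 downward. These values, from the table of the 2 WT groups, address how salt acted on the genes in wild-type root tips. The 5 ER body genes and both nitrile specifier genes fell, while PEN2, TGG4 and TGG5 rose. Of the 19798 genes tested there, 21.8% were called, 11.3% higher and 10.5% lower. Among tested genes with a mean level at least that of NSP3, the lowest of the 10, the share called was 24.2%. The median log2 fold change of the 10 genes was -0.50, against 0.01 for all tested genes. Under the normal-deviate reading only the falls of NSP1, NSP3 and NAI1 were called in WT, 3 of the 10.

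In the line 6-6 the comparison of 6-6 NaCl with 6-6 MS gave 5 calls among the 10 genes, where 24.1% of the 19705 tested genes were called, 13.7% higher and 10.4% lower. NSP1, NSP3 and NAI1 fell and PEN2 and TGG5 rose, each in the direction seen in WT, with which this comparison shares no group. PYK10, NAI2, BGLU21, BGLU22 and TGG4 were not called. The median of the 10 log2 fold changes was -0.14, against 0.03 for all tested genes. The falls of NSP1, NSP3 and NAI1 were again the 3 calls that remained under the normal-deviate reading. Whether the lines differed in their response was not tested, since that needs values per sample.

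**Figure D2:**
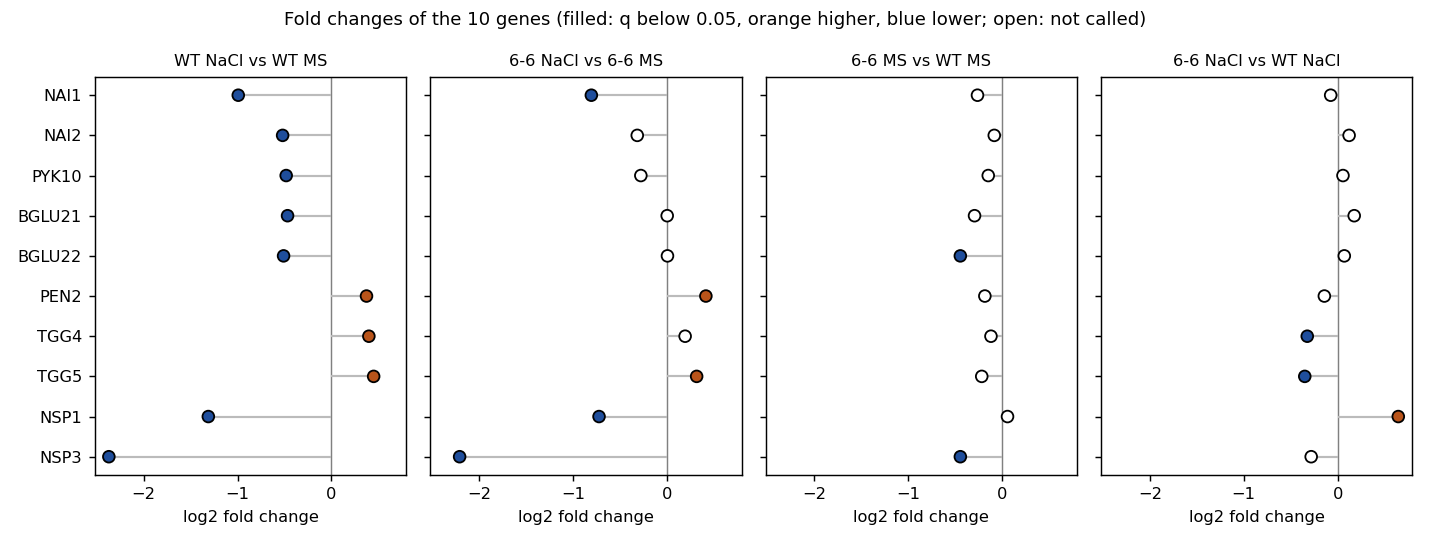
Log2 fold changes of group FPKM (horizontal axes) of the 10 genes in the 4 comparisons. Filled points were called at an authors' q-value below 0.05, orange where the first-named group was higher and blue where it was lower. All 10 points are filled for salt in WT, 5 for salt in 6-6, 2 between lines on MS and 3 between lines on NaCl.

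Green tissue markers mostly rose with salt in both lines, and a few root tip markers were called. Of 9 green tissue markers 7 rose and 1 fell in WT, and their summed level went from 142 to 317 FPKM. In 6-6, 7 of 8 tested rose and none fell, and the sum went from 109 to 238 FPKM. Root tip markers rose in 1 and fell in 2 of 9 in each line. Their summed level went from 479 to 383 FPKM in WT and from 452 to 339 FPKM in 6-6. Among all tested genes 11.3% were called higher and 10.5% lower in WT, and 13.7% and 10.4% in 6-6. In a cut of whole tissue, fewer cells of a type and less RNA per cell cannot be told apart. Under the normal-deviate reading 5 green tissue markers remained called in WT and 7 in 6-6, all higher, and of the root tip markers WOX5 alone, higher in 6-6. The part of these shifts in the results was not tested.

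NAI1 (AT2G22770, chromosome 2, 9684725 to 9686595, TAIR10), the bHLH transcription factor that switches on PYK10 and NAI2, fell to about the same level in both lines on salt. It went from 91.3 FPKM in WT MS to 45.9 FPKM in WT NaCl and from 75.5 FPKM in 6-6 MS to 43.2 FPKM in 6-6 NaCl. Both NaCl groups were lower than both MS groups. The log2 fold changes were -0.99 in WT and -0.80 in 6-6, with q-values of 0.000482 and 0.000441 in the authors' deposited tables. These are the smallest those tables hold, and many genes share them. The 3 bHLH relatives examined were far less abundant and did not follow one pattern. BHLH25 rose from 3.20 to 7.18 FPKM in WT and from 2.14 to 5.89 FPKM in 6-6. BHLH19 fell in WT from 1.39 to 0.408 FPKM, a call lost under the normal-deviate reading, and was not called in 6-6. BHLH18 was not called and stayed below 1 FPKM.

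NAI2 (AT3G15950, chromosome 3, 5397569 to 5402652), the ER body protein required for the compartment to form, went from 507 FPKM in WT MS to 354 FPKM in WT NaCl and from 475 FPKM in 6-6 MS to 382 FPKM in 6-6 NaCl. Both MS groups were higher than both NaCl groups. The fall was called in WT (log2 fold change -0.52) and not in 6-6 (-0.31, q-value 0.0876 in the authors' deposited table). The level of NAI2 relative to NAI1 went from 5.55 to 7.71 in WT and from 6.29 to 8.83 in 6-6.

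NAI2 was also the 1 of the 10 genes with a G-box in the 250 bases before its RefSeq start. Its upstream bases are shown because NAI1 belongs to the bHLH class of factors, many of which recognise this element. The bases come from RefSeq, build TAIR10.1, at chr3:5402654-5402903 on the minus strand, and run 5′ to 3′ up to the base before the start, with capitals marking CACGTG (the G-box) and ACGTG on either strand, which the G-box contains.
NAI2: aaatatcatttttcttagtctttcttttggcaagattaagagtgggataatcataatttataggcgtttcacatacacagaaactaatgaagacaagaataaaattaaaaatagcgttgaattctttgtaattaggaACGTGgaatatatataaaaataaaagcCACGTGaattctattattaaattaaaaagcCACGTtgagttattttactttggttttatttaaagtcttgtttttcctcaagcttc
The G-box begins 86 bases before the start, and other ACGTG matches begin 113 and 56 bases before it. Of 27443 promoters of the same length, 6.49% hold CACGTG, 22.9% hold ACGTG and 55.3% hold CANNTG, the broader E-box that includes the G-box. Among the 10 genes, CACGTG was found in 1, ACGTG in 2 (NAI2 and NSP3) and CANNTG in 3 (NAI2, NAI1 and TGG4). A match is a description of letters, and neither a match nor its absence in this window says anything about binding.

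PYK10 (BGLU23, AT3G09260), the main ER body enzyme, went from 5364 FPKM in WT MS to 3842 FPKM in WT NaCl and from 4797 FPKM in 6-6 MS to 3961 FPKM in 6-6 NaCl. Both NaCl groups were lower than both MS groups. Its fall in WT had a log2 fold change of -0.48 and, in the authors' deposited table, a q-value of 0.0174, the largest of the 10 genes. The change in 6-6 was -0.28 with a q-value of 0.575. The files give PYK10 the locus of AT3G09250 as well (chromosome 3, 2839000 to 2843781, TAIR10), so reads could belong to either gene. AT3G09250 stood between 7.27 and 11.4 FPKM.

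BGLU21 (AT1G66270, 24699990 to 24703041) and BGLU22 (AT1G66280, 24706512 to 24709785), close relatives of PYK10 that lie 3470 bases apart on chromosome 1, behaved alike in WT and were nearly level in 6-6. BGLU21 went from 645 to 467 FPKM in WT and from 521 to 523 FPKM in 6-6. BGLU22 went from 438 to 307 FPKM in WT and from 318 to 320 FPKM in 6-6. For both genes WT MS was the high group and the other 3 lay close together. The falls in WT had log2 fold changes of -0.47 and -0.51, with q-values of 0.000482 each per the authors' deposited table, and the changes in 6-6 were 0.00 and 0.01. Their coding sequences in RefSeq are 93.3% identical, with a longest shared run of 80 bases, and they are 83.4% and 83.1% identical to that of PYK10, so the split of reads between the members of this trio is uncertain. Their differences in log2 salt response, 6-6 minus WT, were 0.47 and 0.52, where 19479 genes tested in both lines had a 5th percentile of -0.43 and a 95th percentile of 0.56.

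The partners of PYK10 mostly fell on salt in WT, as the ER body genes did, with 2 exceptions. The list held the ER body membrane proteins MEB1 and MEB2, the PYK10-binding lectin PBP1, other jacalin-related lectins (JAL) and GDSL lipase-like proteins (GLL) of the PYK10 complex. In WT 9 of 11 tested genes fell and 2 rose, with a median log2 fold change of -0.50 against 0.01 over all tested genes, and in 6-6, 5 fell and 2 rose, with a median of -0.33 against 0.03. Under the normal-deviate reading 7 fell and 1 rose in WT, and 3 fell and 2 rose in 6-6. The shares of all tested genes called lower were 10.5% in WT and 10.4% in 6-6, and those called higher 11.3% and 13.7%. PBP1, itself among the most abundant transcripts, went from 1404 to 914 FPKM in WT, and GLL22 from 1159 to 720 FPKM. MEB2 fell most in the list, from 24.3 to 11.1 FPKM in WT and from 17.2 to 9.89 FPKM in 6-6. JAL22 rose from 33.8 to 52.4 FPKM in WT and from 36.0 to 60.7 FPKM in 6-6, and JAL35 rose from 40.1 to 50.6 FPKM and from 43.5 to 70.4 FPKM. MEB1 shares its locus with other genes in the files, and its value is uncertain.

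**Figure D3:**
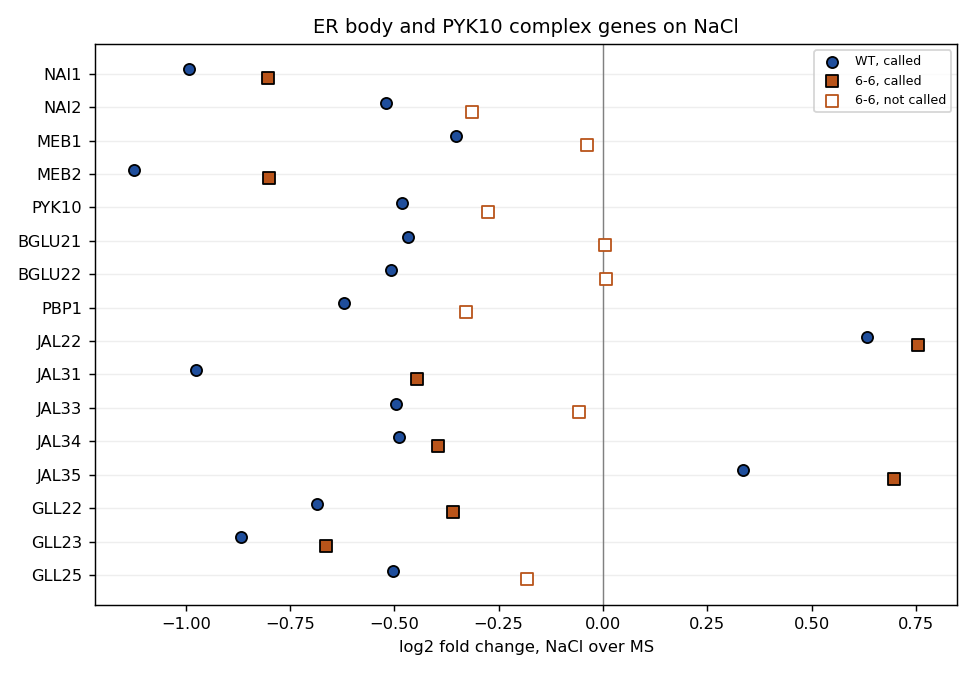
Log2 fold change of NaCl over MS (horizontal axis) of the ER body and PYK10 complex genes in WT (circles) and 6-6 (squares), filled where called. NAI1 stood at -0.99 in WT and -0.80 in 6-6, BGLU21 and BGLU22 stood at 0.00 and 0.01 in 6-6, and JAL22 and JAL35 lay on the right in both lines.

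TSA1 and BGLU18, proteins of the ER bodies that appear in leaves, were rare in these roots. TSA1 rose from 0.867 to 1.91 FPKM in WT and from 0.676 to 1.78 FPKM in 6-6. BGLU18 was tested for salt only in 6-6, where it rose from 0.256 to 0.676 FPKM, a call lost under the normal-deviate reading.

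TGG4 (AT1G47600, 17491732 to 17494759) and TGG5 (AT1G51470, 19087413 to 19090414), the classical myrosinases of roots on chromosome 1, rose on salt in WT, where the ER body enzymes fell. TGG4 went from 144 to 190 FPKM in WT and from 131 to 150 FPKM in 6-6. TGG5 went from 138 to 188 FPKM in WT and from 117 to 146 FPKM in 6-6. WT NaCl was the high group for both genes, and both NaCl groups were above both MS groups. The rise was called for both in WT, with log2 fold changes of 0.40 and 0.45, and for TGG5 alone in 6-6, at 0.32 where the authors' deposited table gives a q-value of 0.0203. TGG4 stood at 0.20 in 6-6 with a q-value of 0.208.

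The 2 TGG genes cannot be read as separate observations. Their coding sequences, of 1536 bases each, are 97.7% identical with a shared run of 187 bases, so reads could belong to either gene. Their upstream regions are also alike, and are shown because the genes moved together. The bases come from RefSeq, build TAIR10.1, at chr1:17491481-17491730 for TGG4 and chr1:19087134-19087383 for TGG5, both on the plus strand, from 5′ to 3′, with the longest run the pair shares in capitals.
TGG4: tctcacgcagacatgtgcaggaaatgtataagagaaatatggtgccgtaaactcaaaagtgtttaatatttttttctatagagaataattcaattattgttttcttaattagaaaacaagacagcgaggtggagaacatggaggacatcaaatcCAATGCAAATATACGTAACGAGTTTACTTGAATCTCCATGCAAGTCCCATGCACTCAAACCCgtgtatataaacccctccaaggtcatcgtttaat
TGG5: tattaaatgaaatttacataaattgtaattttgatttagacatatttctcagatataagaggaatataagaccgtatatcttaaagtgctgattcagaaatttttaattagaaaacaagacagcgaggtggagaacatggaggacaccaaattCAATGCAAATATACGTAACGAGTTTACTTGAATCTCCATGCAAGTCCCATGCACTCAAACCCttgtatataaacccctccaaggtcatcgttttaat
The shared run is 62 bases long and begins 96 bases before the start of TGG4 and 97 before that of TGG5. Over the whole window the pair is 75.5% identical in a global alignment. The longest run in any other pair of the 10 genes was 14 bases, in NSP1 and NSP3.

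PEN2 (AT2G44490, chromosome 2, 18364756 to 18367725), an atypical myrosinase that splits indole glucosinolates in defence against fungi, rose in both lines. It went from 69.5 to 90.1 FPKM in WT and from 60.7 to 81.0 FPKM in 6-6, log2 fold changes of 0.37 and 0.42, with q-values of 0.00208 and 0.00083 in the authors' deposited tables. Both NaCl groups were above both MS groups. Several genes that act with PEN2 rose far more. CYP81F2, which hydroxylates indole glucosinolates, went from 1.97 to 13.8 FPKM in WT and from 1.97 to 10.6 FPKM in 6-6. MYB51, a regulator of indole glucosinolate synthesis, went from 1.48 to 7.74 FPKM and from 1.23 to 5.13 FPKM. The methyltransferase genes IGMT1 and IGMT2 went opposite ways, with log2 fold changes of -1.50 and 2.81 in WT and of -0.60 and 2.00 in 6-6. Their sequence identity was not computed, and reads of these related genes may be mixed, so their values are uncertain. The transporter gene PEN3 and the glutathione transferase gene GSTU13 were called in 6-6, at 0.28 and 0.30, and not in WT, at 0.15 and 0.13. In all, 3 of the 7 partners rose and 1 fell in WT, and 5 rose and 1 fell in 6-6. Over all tested genes 11.3% were called higher and 10.5% lower in WT, and 13.7% and 10.4% in 6-6. The calls of PEN2, PEN3 and GSTU13 were lost under the normal-deviate reading.

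In WT the nitrile specifier genes had the largest fold changes of the 10, and in 6-6 NAI1 stood between them. NSP1 (AT3G16400), the main specifier of seedlings, went from 355 FPKM in WT MS to 143 FPKM in WT NaCl and from 366 FPKM in 6-6 MS to 222 FPKM in 6-6 NaCl. NSP3 (AT3G16390) went from 25.1 to 4.85 FPKM in WT and from 18.3 to 3.95 FPKM in 6-6. Both genes were lower in both NaCl groups than in both MS groups. The falls of NSP1 were 2.48-fold in WT and 1.65-fold in 6-6, with log2 fold changes of -1.31 and -0.72, and those of NSP3 were 5.17-fold and 4.62-fold, at -2.37 and -2.21. All 4 changes had the smallest q-value of their table, 0.000482 in WT and 0.000441 in 6-6, in the authors' deposited tables. Many genes share these values, BGLU21 and BGLU22 in WT among them, so they do not rank the genes. On the log2(FPKM + 1) scale the changes of NSP3 were -2.16 and -1.96.

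NSP3, NSP1 and NSP4 stand in a row on chromosome 3, at 5562571 to 5564571, 5566086 to 5568545 and 5571992 to 5574541 (TAIR10). The coding sequences of NSP1 and NSP3 are 91.6% identical, with a shared run of 68 bases, and NSP1 and NSP4 share a run of 366 bases, so part of the reads could belong to another copy. The upstream bases of NSP1 and NSP3 are shown because these genes had the largest fold changes in WT and share most of their coding sequence. They come from RefSeq, build TAIR10.1, at chr3:5565833-5566082 and chr3:5562150-5562399 on the plus strand, from 5′ to 3′, with the longest run the pair shares in capitals.
NSP1: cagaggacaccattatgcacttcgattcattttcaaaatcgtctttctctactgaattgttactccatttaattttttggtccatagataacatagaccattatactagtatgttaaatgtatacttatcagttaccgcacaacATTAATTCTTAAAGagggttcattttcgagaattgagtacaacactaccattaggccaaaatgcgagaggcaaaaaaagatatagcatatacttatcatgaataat
NSP3: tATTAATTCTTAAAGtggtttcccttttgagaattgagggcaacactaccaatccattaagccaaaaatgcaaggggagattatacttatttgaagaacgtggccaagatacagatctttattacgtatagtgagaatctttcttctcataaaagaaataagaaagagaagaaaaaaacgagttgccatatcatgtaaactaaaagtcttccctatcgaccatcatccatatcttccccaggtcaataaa
That run is 14 bases long. It begins 106 bases before the start of NSP1 and 249 before that of NSP3, and over the whole window the pair is 45.2% identical in a global alignment. A run of nearly this length, 13 bases, is shared by NAI1 and NAI2, which are not copies of each other.

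None of the other specifiers was called lower on salt in WT. NSP4 went from 65.2 to 56.4 FPKM in WT, which was not called, and fell in 6-6 from 60.1 to 45.5 FPKM. NSP5 rose in WT from 147 to 199.5 FPKM and was not called in 6-6, at 174 and 187 FPKM. Both calls were lost under the normal-deviate reading. NSP1 held 59.9% of the summed FPKM of NSP1, NSP3, NSP4 and NSP5 in WT MS and 35.4% in WT NaCl, where NSP5 was the most abundant of them at 49.4%. In 6-6 the share of NSP1 was 59.1% on MS and 48.4% on NaCl, and NSP1 remained above NSP5. ESM1, an epithiospecifier modifier, stayed below 2 FPKM and fell on salt in 6-6 (log2 fold change -0.96), a call lost with the same reading, and was not called in WT. The fall in 6-6 started from 1.80 FPKM on MS, where WT had 0.791 FPKM. NSP2 was at most 0.0293 FPKM in every group.

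The nitrilase genes, whose enzymes act on nitriles, changed singly. NIT2 rose from 92.6 to 148 FPKM in WT and from 86.4 to 157 FPKM in 6-6. NIT4 fell in 6-6, from 4.86 to 2.51 FPKM, a call lost under the normal-deviate reading, and was not called in WT. NIT1 and NIT3 were not called in either line.

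**Figure D4:**
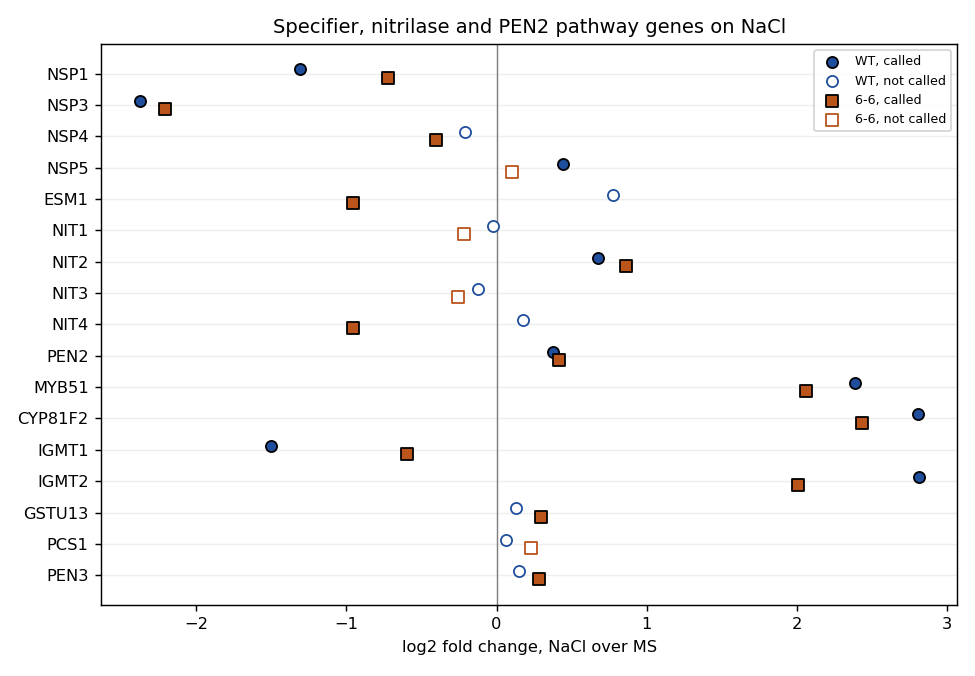
Log2 fold change of NaCl over MS (horizontal axis) of specifier, nitrilase and PEN2 pathway genes in WT (circles) and 6-6 (squares), filled where called. NSP3 lies furthest left, at -2.37 and -2.21, and CYP81F2, IGMT2 and MYB51 lie furthest right, between 2.00 and 2.81.

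Without salt 2 of the 10 genes were called between the lines, both lower in 6-6, where 3.02% of the 19465 tested genes were called, 1.13% higher and 1.89% lower. BGLU22 had 429 FPKM in WT against 315 in 6-6, and NSP3 had 24.6 and 18.0 FPKM. Each had a log2 fold change of -0.45 and, per the authors' deposited table, a q-value of 0.0123. Neither call was kept at a q-value below 0.01 or under the normal-deviate reading, and the median of all tested genes lay at -0.07. This comparison shares the WT MS group with that of salt in WT and the 6-6 MS group with that of salt in 6-6, so 1 value can enter several. The other 8 genes lay between -0.29 and 0.06. Of the 11 tested partners of PYK10, MEB2 (-0.49) and GLL23 (-0.37) were lower in 6-6, both calls lost under the normal-deviate reading, and none was higher. Of the 7 PEN2 partners 1, IGMT1 (-0.70), was lower, likewise lost. ESM1 was higher in 6-6, at 0.775 FPKM in WT and 1.78 FPKM in 6-6, a call also lost under that reading. Of the green tissue markers 3 of 8 tested were lower in 6-6 and none was higher, with summed levels of 139 FPKM in WT and 108 FPKM in 6-6, and 1 of these calls, LHCB1.3, was kept under the normal-deviate reading. None of the 9 root tip markers was called. The part of the green tissue markers in these differences was not tested.

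Under salt NSP1 was higher in 6-6 and TGG4 and TGG5 were lower, and the other 7 genes were not called. The table called 6.71% of 19772 tested genes, 3.04% higher and 3.67% lower. NSP1 was at 145 FPKM in WT NaCl and at 227 FPKM in 6-6 NaCl, a log2 fold change of 0.65, its q-value in the authors' deposited table being 0.00186, and this call was kept under the normal-deviate reading. TGG4 had 192 FPKM in WT against 154 in 6-6, and TGG5 had 190 and 149 FPKM. Their log2 fold changes were -0.32 and -0.35, with q-values of 0.0273 and 0.0115 in the authors' deposited table. The TGG calls were lost at a q-value below 0.01 and under the normal-deviate reading. The ER body genes NAI1, NAI2, PYK10, BGLU21 and BGLU22 lay between -0.07 and 0.18. Among the partners of PYK10 3 of 11 were higher in 6-6 and none lower, namely JAL33 (0.49), JAL35 (0.49) and GLL22 (0.38), all lost under the normal-deviate reading. The PEN2 partners MYB51 (-0.58), IGMT2 (-0.51) and CYP81F2 (-0.36) were lower in 6-6, and these calls were also lost with that reading. The nitrilase gene NIT4 was lower in 6-6 (-0.63), likewise lost. Of the green tissue markers 1 of 8 tested, LHCB1.3, was lower and none higher, a call kept under the normal-deviate reading, with summed levels of 321 FPKM in WT and 243 FPKM in 6-6. Of the 9 root tip markers WOX5 was higher (1.00) and SMB lower (-0.48), both lost under that reading, with summed levels of 388 FPKM in WT and 347 FPKM in 6-6. The part of these markers in the differences was not tested.

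Among the genes tested in all 4 tables, 19145 in all, those whose 4 log2 fold changes lay nearest to those of NSP1 were AT5G12270, AT4G28940 and AT1G21550, with largest differences of 0.07, 0.07 and 0.08. Those nearest to NSP3 were AT1G62975, AT1G72490 and the methionine sulfoxide reductase gene MSRB6, at 0.32, 0.33 and 0.36. The 4 comparisons share groups, so the likeness is over 4 group values per gene.

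Most called relatives of the myrosinases in the BGLU family of beta-glucosidases rose on salt. Of 47 family genes, which include 6 of the 10, 20 were tested in no table. Outside those 6 genes, salt in WT raised 10 of 19 tested and lowered 2, with a median log2 fold change of 0.62. Salt in 6-6 raised 9 of 21 and lowered 3, with a median of 0.28. Over all tested genes 11.3% were called higher and 10.5% lower in WT, with a median of 0.01. In 6-6 these values were 13.7%, 10.4% and 0.03. Under the normal-deviate reading 7 of these relatives rose and 2 fell in WT, and 8 rose and 1 fell in 6-6. BGLU27, called higher in WT, has no test statistic there, so that reading could not call it. BGLU11 went from 23.8 to 47.5 FPKM in WT and reached 49.5 FPKM in 6-6 NaCl, and BGLU15 from 26.3 to 42.2 FPKM and from 25.8 to 54.4 FPKM. BGLU24 (5.13 in WT), BGLU7 (3.20) and DIN2 (2.51) had the largest finite log2 fold changes in WT, from 0.103, 0.227 and 0.124 FPKM on MS, and BGLU27 was listed at 0 in WT MS and at 1.68 FPKM in WT NaCl. BGLU6 and BGLU44 fell in both lines, and the fall of BGLU44 in 6-6 was lost under the normal-deviate reading. The summed FPKM of these 41 relatives went from 207 to 280 in WT, where the 6 described enzymes together went from 6797 to 5084.

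**Figure D5:**
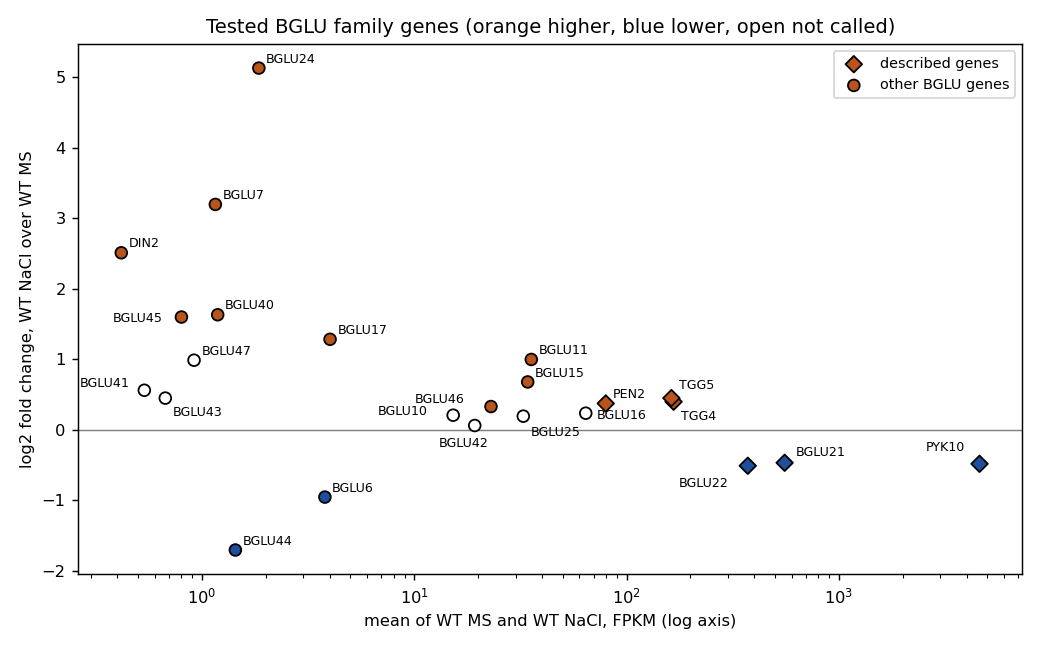
Log2 fold change of WT NaCl over WT MS (vertical axis) against the mean FPKM of both groups (horizontal log axis) for tested BGLU family genes with a finite fold. Diamonds are genes described above, orange was called higher, blue lower and open not called. PYK10, BGLU21 and BGLU22 lie at the right and below 0, and BGLU24 lies highest at 5.13. BGLU27, listed at 0 in WT MS, is not drawn.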

How the data were processed

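The 12 samples form 4 groups of 3. The submitters' processing notes name HISAT2, HTSeq, edgeR and TAIR10, with no versions or roles. Per the file headers, the authors deposited 4 gene-level tables, each with 1 combined FPKM per group, a test statistic (a score), p-values and q-values for 2 groups. The deposited FPKM are scaled by transcript length and library size. The deposited q-values equalled a Benjamini-Hochberg adjustment of the deposited p-values to within 5.29e-07. Log2 ratios, counts and list medians were computed with pandas 2.3.3, and the calling steps were tested on simulated data. Genes the authors marked as not tested were left out of counts and medians. Starts were raised by 1 to count from 1.

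The 10 genes, the 13 lists of 80 further genes and the rule for named genes (all 10, called or small-list genes, called BGLU genes with a log2 fold change of at least 1 in size, and the 3 nearest genes of strongly changed members) were chosen with earlier results of these data known. Upstream windows of 250 bases and coding identities (Biopython 1.88) came from the RefSeq TAIR10.1 genome and annotation; all 10 genes and all 80 list genes matched by gene code. Protein sequences were not used here. Alternatives were a q-value below 0.01, the statistic read as a normal deviate, a mean FPKM of at least 1, centring on the median gene and pseudocounts of 1 and 0.1. No values per sample were used, so replicates could not be left out.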

Additional observations from a re-analysis of the deposited data

How the results depend on the processing

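Group values without samples limit every result: the spread between samples enters only through the authors' test, and the depth is unknown. With the authors' statistic read as a normal deviate, the genes called of the 10 went from 10 to 3 for salt in WT, from 5 to 3 for salt in 6-6, from 2 to 0 between lines on MS and from 3 to 1 between lines on NaCl. NSP1, NSP3 and NAI1 were the 3 genes kept in both salt comparisons and NSP1 the 1 kept on NaCl. Centring that statistic on the median gene gave the same 3, 3, 0 and 1. A q-value below 0.01 gave 9 and 4 for salt, 0 on MS and 1 on NaCl, and left 0 of 3 BGLU family calls on MS and 4 of 7 on NaCl. A mean FPKM of at least 1 changed none of the 4 counts. Of 40 log2 fold changes 38 kept their direction after centring. The exceptions were the uncalled values of BGLU21 and BGLU22 for salt in 6-6, which turned to -0.0227 and -0.0198. A pseudocount of 1 moved a value by at most 0.25 and one of 0.1 by at most 0.03, and neither turned a direction. The reading of list counts as normal deviates was chosen after seeing the data. No paired analysis was possible because the tables hold 1 value per group, and for the same reason leaving out single replicates was not run. The cause of these differences was not tested.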

Other observations

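Of 8 tested genes of aliphatic glucosinolate synthesis, 5 were lower in 6-6 than in WT on MS and none was higher, where 1.89% of all tested genes were called lower, with a median log2 fold change of -0.76 against -0.07 over all tested genes. BCAT4, the first aminotransferase of chain elongation, had 106 FPKM in WT MS against 42.9 FPKM in 6-6 MS, but the files give it a locus shared with AT3G19700, so its value is uncertain. Under the normal-deviate reading 4 of the 5 calls were kept. On NaCl 4 of the 8 were lower in 6-6, where 3.67% of all tested genes were, and none was kept under that reading. Salt lowered 4 of the 8 in WT and 2 in 6-6, where 10.5% and 10.4% of all tested genes were called lower. Under that reading 4 and 1 were kept. Of 12 genes of indole glucosinolate synthesis none was called between lines on MS. On NaCl 3 were higher and 1 was lower in 6-6, where 3.04% and 3.67% of all tested genes were, none kept under the normal-deviate reading. Salt raised 2 and lowered 6 of the 12 in WT, and raised 1 and lowered 3 in 6-6. The shares of all tested genes called higher on salt were 11.3% in WT and 13.7% in 6-6. Under that reading 3 indole genes fell in WT, and 1 rose and 1 fell in 6-6. The glucosinolate transporter gene GTR1 rose on salt in both lines, by 0.46 in WT and 0.51 in 6-6 on the log2 scale, and GTR2 rose in 6-6 (0.35). The transporter loci are shared with neighbours in the files, and these calls were lost under the normal-deviate reading.

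TGG1, the leaf myrosinase gene, was rare but uneven. Its level was 0.267 FPKM in WT MS and 0.964 FPKM in 6-6 MS, a log2 fold change of 1.85, and in 6-6 it fell on salt to 0.180 FPKM. Both calls were lost under the normal-deviate reading.

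NSP3 and NSP1 open a stretch of 11 genes on chromosome 3, from 5562571 to 5599224 (TAIR10), that runs on through NSP4, PBP1, JAL31, JAL33 and JAL34 to JAL35. Of its 9 tested genes salt lowered 6 and raised 1 in WT, and lowered 5 and raised 1 in 6-6, where 10.5% and 10.4% of all tested genes were called lower. The 1 that rose in both lines was JAL35, at the far end. Under the normal-deviate reading the fall of JAL34 and the rise of JAL35 were lost in WT, and the falls of JAL34 and NSP4 in 6-6. Between lines on NaCl 3 were higher in 6-6 (NSP1, JAL33 and JAL35) and none was lower, where 3.04% and 3.67% of all tested genes were. NSP1 alone was kept under that reading. NSP1, NSP3 and NSP4 hold near-identical runs, and the stretch was chosen after its values were seen. PEN2 ends a stretch of 5 BGLU genes on chromosome 2, from 18340921 to 18367725, of which 3 were tested and all 3 rose on salt in both lines. Over all tested genes 11.3% were called higher in WT and 13.7% in 6-6. The rise of PEN2 was lost under the normal-deviate reading in both.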
